A study of Homo sapiens with 36 samples.

Results

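The 7 genes described here are known targets of the liver X receptors (LXR) but do not belong to the lipogenic programme: MYLIP, LPCAT3, PLTP, SMPDL3A, TMEM135, APOE and APOC1. They were picked out by gene symbol, with earlier results of these data known, and make up 7 of the 58243 genes in the count table. RNA was sequenced from PANC-1, MIA PaCa-2 and BxPC-3, which are long-established human cell lines of pancreatic ductal adenocarcinoma. Each line was exposed for 48 h to GW3965 (a synthetic LXR agonist), to 1E5 or 3A4 (compounds known by code name only, which the labels class as LXR inverse agonists), each at 10 µM, or to the vehicle DMSO. The 12 groups held 3 libraries each, 36 in all. PANC-1 and MIA PaCa-2 were kept in DMEM but BxPC-3 in RPMI 1640, with 10% serum, 5% CO2 and 37 °C throughout, so in comparisons of BxPC-3 with the other lines the line and its medium cannot be told apart. The titles mark the 3 libraries of a group as biological replicates but do not say whether they were grown as separate cultures, and the p-values therefore measure only library-to-library spread, which may be technical. In bulk RNA, fewer cells that express a gene and less of its RNA per cell cannot be told apart either.

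LXR-alpha and LXR-beta are nuclear receptors that bind oxysterols and sit on DNA as heterodimers with the retinoid X receptors (RXR). An agonist turns their targets on, and an inverse agonist lowers transcription below its unliganded level through corepressors. The targets outside lipogenesis limit uptake of lipoproteins (MYLIP), remodel membrane phospholipids (LPCAT3) or move lipids between lipoproteins (PLTP). Others encode apolipoproteins that act in lipoprotein uptake (APOE, APOC1), or enzymes and membrane proteins of lipid handling (SMPDL3A, TMEM135). Many of these targets were described in macrophages and liver rather than in pancreatic cells.

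The libraries of BxPC-3 held 19605935 to 25888304 counts each, and those of PANC-1 held 14960970 to 26026684. In MIA PaCa-2 they were uneven, at 2701393 to 13631719 with GW3965, 23675670 to 25503827 with 1E5, 8889927 to 24588097 with 3A4 and 3609582 to 10996848 with DMSO. As a check of the agonist, ABCA1, the cholesterol exporter and a standard LXR target, was 25.8-fold higher with GW3965 in PANC-1, 7.45-fold in MIA PaCa-2 and 7.5-fold in BxPC-3 (edgeR adjusted p = 1.74e-05, 0.0038 and 0.00306). With 1E5 its log2 values over DMSO were 0.33 ± 0.261, 0.066 ± 0.324 and -0.24 ± 0.278 (SE) in the same order of lines. With 3A4 they were 0.2 ± 0.263, 0.12 ± 0.327 and -0.31 ± 0.278. ABCA1 was thus not called by edgeR with either labelled inverse agonist in any line. The 5 epithelial markers (KRT8, KRT18, KRT19, EPCAM and CDH1) summed to 3660 to 4680 CPM (counts per 1000000 counts of the library) in BxPC-3, 539 to 1690 CPM in MIA PaCa-2 and 760.0 to 5090 CPM in PANC-1. EPCAM was at 0 in every GW3965, 3A4 and DMSO library of MIA PaCa-2. The epithelial sum was 539 to 605 CPM with 1E5 against 1360 to 1690 CPM with DMSO in MIA PaCa-2, and 760.0 to 946 CPM with 1E5 against 3250 to 5090 CPM with DMSO in PANC-1. The fibroblast list moved the same way, at 9.18 to 27.9 CPM with 1E5 against 247 to 257 CPM with DMSO in MIA PaCa-2 and 4.93 to 16.8 CPM against 53.9 to 180.0 CPM in PANC-1, with DCN and LUM at 0 in all these groups. With 3A4 it stood at 94.4 to 168 CPM in MIA PaCa-2 and 11.5 to 36.7 CPM in PANC-1, and with GW3965 at 201 to 230.0 and 48.6 to 139 CPM. Of the 5 macrophage markers, CD14 alone was detected in MIA PaCa-2 with DMSO, and the list summed there to 0.0 to 1.57 CPM with GW3965, 0.0 to 0.531 CPM with 1E5 and 2.32 to 4.69 CPM with 3A4, against 14.2 to 19.1 CPM with DMSO. In PANC-1 the macrophage sum was 3.73 to 4.3 CPM with 3A4 and at most 1.14 CPM in the other groups. The hepatocyte list, with ALB, TTR, APOH and FGB at 0 with 1E5 and with DMSO, stood at 1.21 to 3.7 CPM with 1E5 against 3.77 to 10.6 CPM with DMSO in MIA PaCa-2. In PANC-1 it ran the other way, at 0.58 to 1.42 CPM with 1E5 and 0.602 to 1.15 CPM with 3A4 against 0.0 to 0.116 CPM with DMSO. Mitochondrially encoded genes took 1.49 to 2.86% of counts with 1E5 against 7.52 to 7.58% with DMSO in MIA PaCa-2, and 2.69 to 6.59% against 6.0 to 7.23% in PANC-1. The part of these marker and depth differences in the results was not tested.

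With DMSO the lines already differed in these genes. BxPC-3 had the most PLTP, LPCAT3, SMPDL3A and MYLIP RNA, and PANC-1 had the most TMEM135 and nearly all of the APOE. Per kilobase of exon, the scale on which genes can be compared, PLTP led in BxPC-3 at 90.8 ± 1.33 CPM per kilobase (mean ± SD, n = 3) and LPCAT3 followed at 25.8 ± 1.87. In MIA PaCa-2 PLTP at 19.9 ± 1.51 and LPCAT3 at 12.9 ± 1.91 CPM per kilobase again led. In PANC-1 APOE stood at 177 ± 47.4 CPM per kilobase, above TMEM135 at 12.8 ± 0.732 and LPCAT3 at 11.8 ± 0.654. The lowest level per kilobase was that of APOE in BxPC-3 (0.197 ± 0.22) and of SMPDL3A in MIA PaCa-2 (0.375 ± 0.342) and PANC-1 (1.68 ± 0.609). In 1 fit of all 36 libraries, 4 genes were called higher and 3 lower in BxPC-3 than in PANC-1 at an edgeR adjusted p under 0.05, where 27.1% of all 22132 genes were higher and 25.5% lower. Between MIA PaCa-2 and PANC-1, 1 was higher and 4 were lower (21.7% and 29.5% of all genes). Between BxPC-3 and MIA PaCa-2, 5 were higher and 1 was lower (32.7% and 24.6%).

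**Figure D1:**
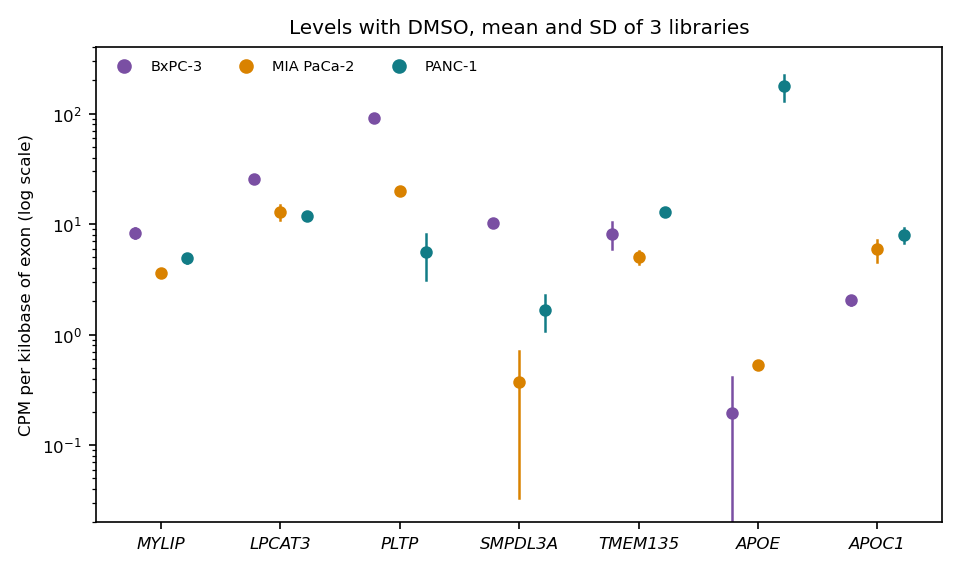
Level of each of the 7 genes with DMSO, in CPM per kilobase of exon on a log axis, by line; points are means of 3 libraries and bars 1 SD (the lower end for APOE in BxPC-3 lies below the axis). APOE spans from 0.197 in BxPC-3 to 177 in PANC-1, while LPCAT3 stays between 11.8 and 25.8.

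GW3965 against DMSO asks which of the genes answer to an LXR agonist in these cells. MYLIP and LPCAT3 rose in BxPC-3 and in PANC-1, PLTP rose in BxPC-3, and no gene of the 7 fell in any line. SMPDL3A, TMEM135, APOE and APOC1 passed in no line with edgeR. In BxPC-3 3 of 7 genes were called higher and 0 lower, against 0.477% and 0.848% of 18042 genes tested. In MIA PaCa-2 none was called, where 0.418% of 16254 genes were higher and 0.105% lower. There 3 of the 7 had an unadjusted edgeR p under 0.05, as did 1420 of all genes. DESeq2 called 2 of the 7 (MYLIP and LPCAT3) and 267 of all genes, and limma-voom 0 and 18. In PANC-1 2 of 7 were higher, against 0.0431% of 18544 genes higher and 0.00539% lower. DESeq2 called 3 of the 7 there (TMEM135 in addition) and 97 of all genes, and limma-voom 2 and 10. The median log2 fold change of the 7 was 0.51 in PANC-1, 0.53 in MIA PaCa-2 and 0.63 in BxPC-3, beside -0.00043, -0.0014 and -0.0037 over all genes tested. Of 7 tested genes of sterol efflux and lipogenesis, 2 rose in PANC-1, 5 in MIA PaCa-2 and 4 in BxPC-3, with medians of 1.4, 1.27 and 1.55. These included FASN, the fatty acid synthase, at 1100 ± 247 CPM with GW3965 and 375 ± 25.4 CPM with DMSO in BxPC-3 (SD, n = 3 each; edgeR adjusted p = 0.00355). None of 4 tested LXR and RXR receptor genes was called with GW3965.

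1E5 against DMSO asks what the first of the labelled inverse agonists does to the same genes. LPCAT3 fell in MIA PaCa-2 and PANC-1, whereas PLTP, another LXR target, rose in both. MYLIP fell in MIA PaCa-2, while TMEM135 fell and SMPDL3A rose in PANC-1. In MIA PaCa-2 1 gene was higher and 2 were lower, where 23.6% of all genes were higher and 23.4% lower. In PANC-1 2 were higher and 2 lower, where the shares were 19.7% and 19.3%, so these counts are to be read against a response that took in a large share of all genes. In BxPC-3 none of the 7 was called, and none of the 18042 genes either (0.0% higher and 0.0% lower). In that comparison 572 genes had an unadjusted edgeR p under 0.05, none of them among the 7, while DESeq2 called 12 genes and limma-voom 0, none of the 7 with either tool. The median of the 7 was 0.18 in PANC-1 and -0.24 in MIA PaCa-2, beside 0.017 and 0.05 over all genes. Of 7 tested genes of sterol efflux and lipogenesis, 1 rose and 3 fell in MIA PaCa-2 (23.6% and 23.4% of all genes). In PANC-1 2 rose and 4 fell (19.7% and 19.3%). ABCG1 rose there 5.13-fold and FASN fell 5.52-fold (edgeR adjusted p = 6.37e-05 and 2.5e-05). Of the 4 receptor genes tested, 1 rose and 1 fell in MIA PaCa-2 and 3 rose in PANC-1. NR1H2 (LXR-beta) rose in both lines, at 60.4 ± 9.15 CPM with 1E5 against 41.0 ± 5.82 with DMSO in MIA PaCa-2 and 59.1 ± 2.71 against 40.1 ± 2.93 in PANC-1 (SD, n = 3 each; edgeR adjusted p = 0.00853 and 0.00163). NR1H3 (LXR-alpha) rose in PANC-1, to 12.3 ± 1.66 CPM with 1E5 against 6.64 ± 1.65 with DMSO (edgeR adjusted p = 0.0051), as did RXRB (1.38-fold; adjusted p = 0.011). RXRA fell in MIA PaCa-2, to 53.4 ± 4.19 CPM with 1E5 against 79.6 ± 2.03 CPM with DMSO (edgeR adjusted p = 0.00413).

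3A4 against DMSO asks the same of the second labelled inverse agonist. LPCAT3 fell in both MIA PaCa-2 and PANC-1, TMEM135 fell in PANC-1, and no gene of the 7 rose. In MIA PaCa-2 0 were higher and 1 was lower, where 7.3% of all genes were higher and 6.45% lower. In PANC-1 0 were higher and 2 lower, where 3.53% and 3.84% were called. In BxPC-3 edgeR called none, where 0.0277% of genes were higher and 0.00554% lower. There 2 of the 7 had an unadjusted p under 0.05, as did 2292 of all 18042 genes. DESeq2 and limma-voom each called 0 of the 7, against 369 and 14 of all genes. The median of the 7 was -0.36 in PANC-1 and -0.34 in MIA PaCa-2, beside 0.015 and 0.029 over all genes. Among the efflux and lipogenic targets 1 of 7 fell in MIA PaCa-2 and 2 of 7 in PANC-1, and FASN stood at 617 ± 64.0 CPM with 3A4 against 1460 ± 21.3 CPM with DMSO in PANC-1 (SD, n = 3 each; edgeR adjusted p = 0.0122). RXRA was the receptor gene called with 3A4, falling 1.5-fold in MIA PaCa-2 and 1.39-fold in PANC-1 (edgeR adjusted p = 0.0178 and 0.0255).

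**Figure D2:**
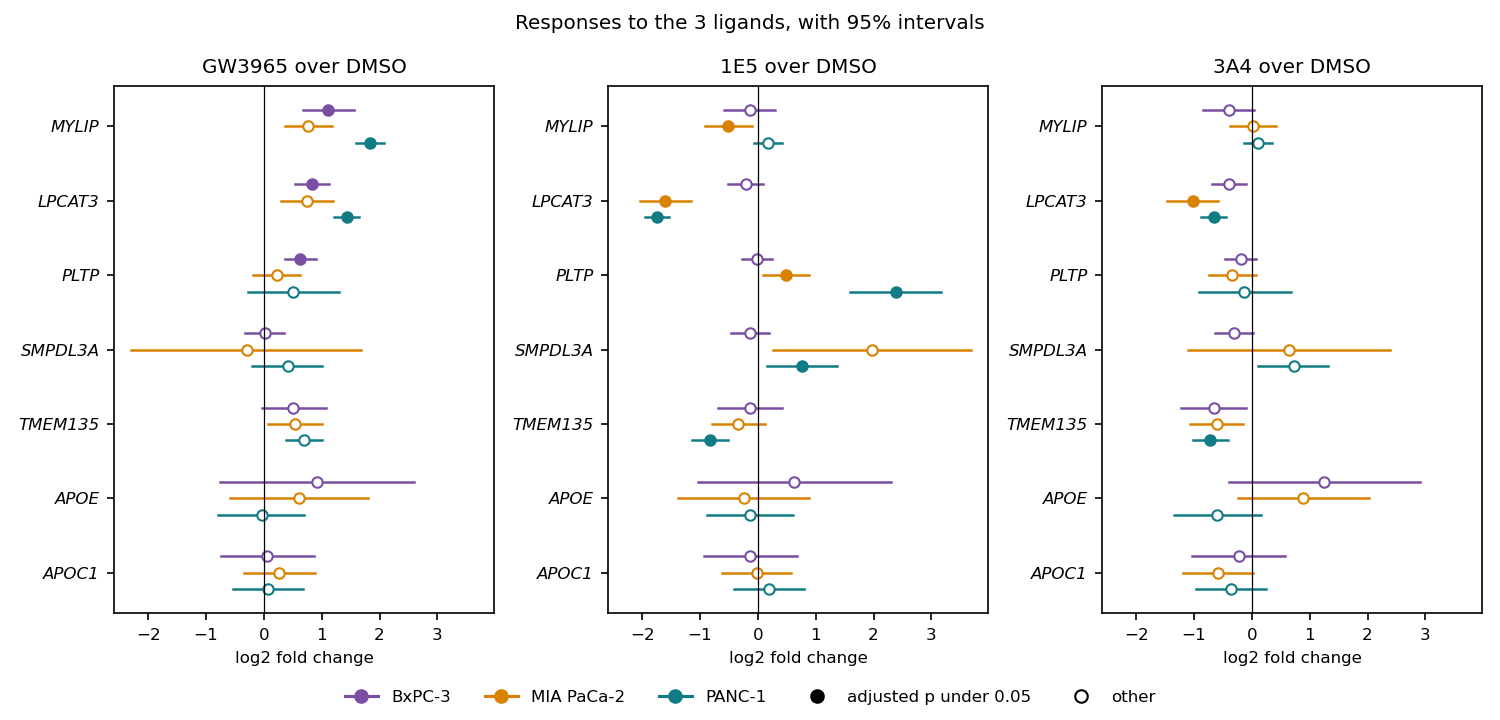
Log2 fold change of each gene over DMSO for GW3965, 1E5 and 3A4, by line, with 95% intervals from the edgeR fits; filled points have an adjusted p under 0.05. MYLIP and LPCAT3 lie to the right with GW3965 in all 3 lines, LPCAT3 lies at -1.6 and -1.75 with 1E5 in MIA PaCa-2 and PANC-1, and PLTP at 2.38 with 1E5 in PANC-1.

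3A4 against 1E5 sets the labelled inverse agonists side by side at the same dose and time, for 7 genes in each of 3 lines. The lines that responded to 1E5 showed LPCAT3 higher and PLTP lower with 3A4 than with 1E5. In MIA PaCa-2 2 genes were higher and 1 lower with 3A4, where 17.2% of all genes were higher and 15.1% lower. In PANC-1 1 was higher and 1 lower, where 18.5% and 18.8% were called. In BxPC-3 edgeR called none, where 0.0887% were higher and 0.0554% lower. There 0 of the 7 had an unadjusted p under 0.05, against 2497 of all 18042 genes. DESeq2 and limma-voom called 0 of the 7, against 494 and 33 of all genes. A p above the threshold does not show that the compounds act alike: in BxPC-3 the 95% intervals of 3A4 over 1E5 ran from -0.7 to 0.18 log2 for MYLIP, -0.48 to 0.12 for LPCAT3, -0.45 to 0.084 for PLTP and -1.08 to 0.035 for TMEM135.

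**Figure D3:**
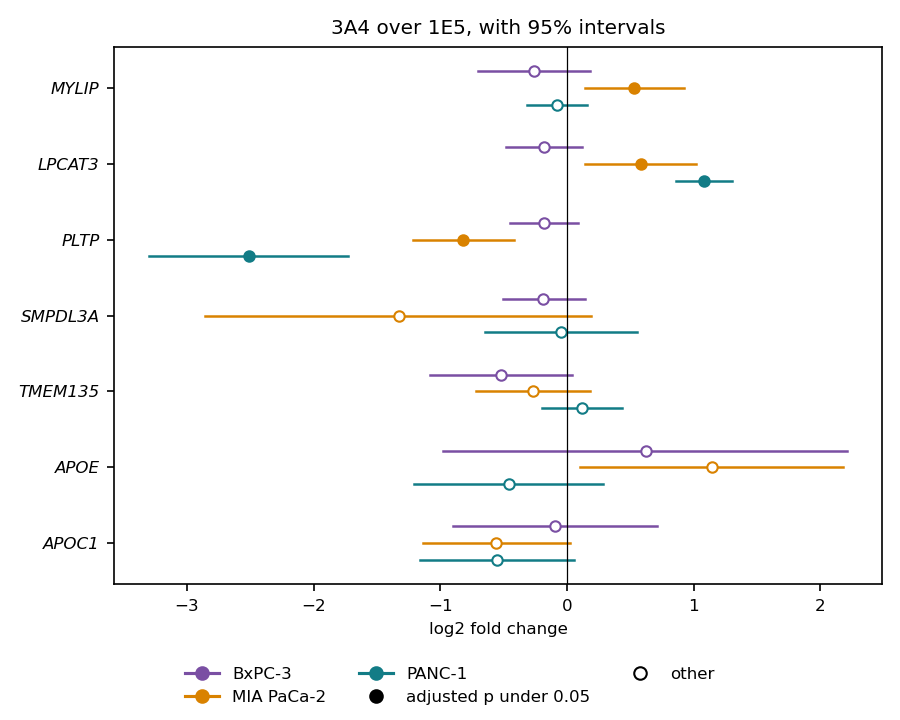
Log2 fold change of 3A4 over 1E5 for each gene and line, with 95% intervals; filled points have an edgeR adjusted p under 0.05. PLTP lies at -2.51 in PANC-1 and -0.82 in MIA PaCa-2, LPCAT3 at 1.08 and 0.58, and every BxPC-3 interval includes 0.

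Whether a response differed among the lines was tested with an interaction term over all 36 libraries. For GW3965 edgeR called none of the 7, where 0.104% of 22132 genes were called. There 2 of the 7 (MYLIP and LPCAT3) had an unadjusted p under 0.05, as did 1368 of all genes. DESeq2 called 1 of the 7 and 181 of all genes, and limma-voom 0 and 31. For 1E5 3 were called (LPCAT3, PLTP and SMPDL3A), where 38.5% of all genes were. For 3A4 none was, where 5.89% of all genes were called. With 3A4, 1 of the 7 (APOE) had an unadjusted p under 0.05, as did 4645 of all genes. DESeq2 and limma-voom both called 0 of the 7, against 2551 and 1476 of all genes.

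MYLIP (ENSG00000007944; GRCh38, chromosome 6, 16129125 to 16148248, plus strand) encodes a ubiquitin ligase, also named IDOL, that marks lipoprotein receptors for lysosomal degradation. Its upstream sequence is shown because MYLIP and LPCAT3 shared the clearest agonist response. The 250 bases before the RefSeq start (GRCh38.p14, chr6:16128836-16129085, plus strand) carry in capitals 2 copies of the CCAAT box read on the other strand, ATTGG.
MYLIP: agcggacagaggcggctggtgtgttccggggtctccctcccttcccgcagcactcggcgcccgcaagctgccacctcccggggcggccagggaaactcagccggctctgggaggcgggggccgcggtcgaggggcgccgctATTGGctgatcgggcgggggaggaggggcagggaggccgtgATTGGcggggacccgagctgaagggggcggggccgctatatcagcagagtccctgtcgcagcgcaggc
A search of both strands for the LXR and RXR core motif AGGTCA found none in this window, and 12.1% of all 35116 RefSeq windows of the same length hold one. The CCAAT box was in 32.0% of all windows.

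MYLIP read 46.9, 56.0 and 50.2 CPM in the GW3965 libraries of BxPC-3 against 21.0, 24.6 and 25.1 CPM with DMSO. In PANC-1 it read 54.1, 58.2 and 52.1 CPM with GW3965 against 15.8, 16.6 and 14.0 CPM with DMSO. In MIA PaCa-2 it read 19.3, 21.6 and 18.4 CPM with GW3965 against 12.2, 10.8 and 11.9 CPM with DMSO. In all 3 lines the lowest GW3965 library exceeded the highest DMSO library. Here and below such a separation is a description, and the share of all genes that separate so is not given. The rise was 2.16-fold in BxPC-3 (log2 1.11 ± 0.20 SE; edgeR adjusted p = 0.0228) and 3.55-fold in PANC-1 (1.83 ± 0.109; adjusted p = 1.74e-05), and the value in MIA PaCa-2 was 0.77 ± 0.188 (adjusted p = 0.142). The BxPC-3 call did not hold without any 1 of the 6 compared libraries (edgeR adjusted p 0.0508 to 0.113, with the log2 value at 1.03 to 1.17). In MIA PaCa-2 the fit of all 36 libraries (adjusted p = 0.0232) and DESeq2 (0.0204) called it.

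With 1E5, MYLIP read 7.48, 7.35 and 9.66 CPM in MIA PaCa-2, all below the DMSO libraries, a fall of 1.42-fold (log2 -0.51 ± 0.185; edgeR adjusted p = 0.0375). This call depended on single libraries, since it was lost without 1E5 replicate 1 or 2 or DMSO replicate 1, 2 or 3 (edgeR adjusted p 0.0714 to 0.125), and it was lost in 8 of the other alternatives. With 3A4 it read 11.9, 11.6 and 11.9 CPM in that line, overlapping DMSO, and 3A4 was higher than 1E5 by 0.53 ± 0.18 log2 (95% interval 0.14 to 0.92; edgeR adjusted p = 0.0388). That difference did not pass without 1E5 replicate 1 or 2 or without any 1 of the 3A4 libraries (adjusted p 0.0602 to 0.135). In PANC-1 MYLIP read 18.5, 16.8 and 17.3 CPM with 1E5 and 16.4, 17.3 and 15.9 CPM with 3A4, at log2 values of 0.18 ± 0.11 and 0.1 ± 0.11 over DMSO (edgeR adjusted p = 0.215 and 0.629). In BxPC-3 it read 14.7, 23.2 and 26.3 CPM with 1E5 and 14.0, 19.4 and 20.2 CPM with 3A4, and 3A4 lay below DMSO in every library at -0.4 ± 0.202 log2 (edgeR adjusted p = 0.443). With DMSO, MYLIP was highest in BxPC-3 and lowest in MIA PaCa-2. It was 1.7-fold higher in BxPC-3 than in PANC-1 (edgeR adjusted p = 0.000252) and 1.35-fold lower in MIA PaCa-2 than in PANC-1 (adjusted p = 0.0384), a call lost without MIA PaCa-2 replicate 2 or PANC-1 replicate 1 or 2 (adjusted p 0.0519 to 0.104), with RLE scaling (0.0505), in DESeq2 (0.0587) and in limma-voom (0.149).

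The receptors and receptor regulators that act beside MYLIP were 7 genes, of which 6 or 7 were tested in a line. VLDLR, a substrate of the MYLIP ligase, rose with GW3965 in MIA PaCa-2, to 21.6 ± 4.74 CPM against 6.68 ± 2.3 CPM with DMSO (SD, n = 3 each; edgeR adjusted p = 0.0153), the single call of the list with the agonist in any line. With 1E5, 1 rose and 4 fell in MIA PaCa-2 (23.6% and 23.4% of all genes). In PANC-1 1 rose and 2 fell with 1E5 (19.7% and 19.3% of all genes). VLDLR rose with 1E5 3.64-fold in MIA PaCa-2 and 3.62-fold in PANC-1 (edgeR adjusted p = 9.1e-05 and 0.000728). With 3A4, 2 genes of the list fell in MIA PaCa-2 (6.45% of all genes), LRP1 among them, and none was called in PANC-1.

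**Figure D4:**
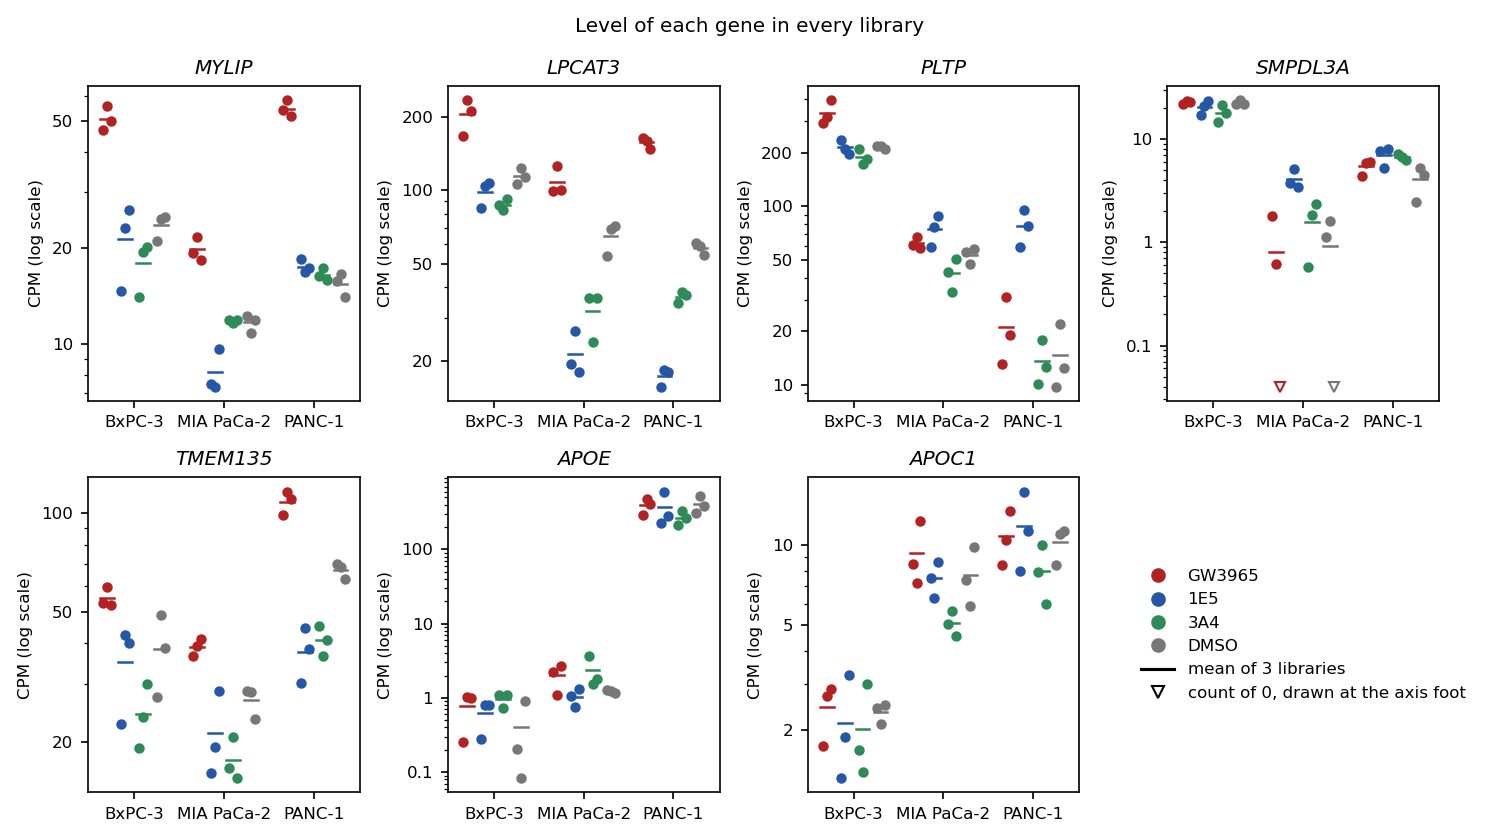
CPM of each of the 7 genes in all 36 libraries on a log axis (TMM-scaled within a line), grouped by line and coloured by treatment in the order GW3965, 1E5, 3A4, DMSO; bars are means of 3 libraries and open triangles are counts of 0. The GW3965 points of MYLIP and LPCAT3 stand above the DMSO points in every line, and the APOE points of PANC-1, at 210.0 to 595 CPM, stand far above those of the other lines.

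LPCAT3 (ENSG00000111684; GRCh38, chromosome 12, 6976186 to 7018510, minus strand) encodes an acyltransferase that places polyunsaturated chains into lysophospholipids of the endoplasmic reticulum. It was the one gene of the 7 called higher with the agonist and lower with both labelled inverse agonists, in PANC-1. The 250 bases before its RefSeq start (GRCh38.p14, chr12:7018477-7018726, minus strand) hold 3 CCAAT boxes, in capitals as CCAAT or as its reverse complement ATTGG, and no AGGTCA core motif on either strand.
LPCAT3: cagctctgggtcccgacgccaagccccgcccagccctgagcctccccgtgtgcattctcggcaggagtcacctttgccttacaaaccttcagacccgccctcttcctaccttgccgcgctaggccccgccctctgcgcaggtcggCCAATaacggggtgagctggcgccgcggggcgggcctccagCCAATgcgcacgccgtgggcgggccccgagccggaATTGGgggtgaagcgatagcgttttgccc
The gene overlaps EMG1 on the opposite strand by 21243 bases, 3100 of them exonic in both, and the body of C1S by 30252 bases with no shared exon. The strand setting of the counting is not given in the sources used here, so reads of the shared exons cannot be assigned with certainty.

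LPCAT3 read 167, 233 and 211 CPM with GW3965 in BxPC-3 against 106, 123 and 113 CPM with DMSO. In MIA PaCa-2 it read 98.9, 126 and 100 CPM with GW3965 against 53.8, 69.6 and 71.1 CPM with DMSO. In PANC-1 it read 164, 159 and 147 CPM with GW3965 against 60.8, 58.9 and 54.5 CPM with DMSO. The GW3965 and DMSO libraries did not overlap in any line. The rise was 1.79-fold in BxPC-3 (log2 0.84 ± 0.135; edgeR adjusted p = 0.0134) and 2.7-fold in PANC-1 (1.43 ± 0.0978; adjusted p = 4.92e-05). In MIA PaCa-2 it was 0.75 ± 0.205 log2 with an adjusted p of 0.209, which was 0.0118 in the fit of all 36 libraries and 0.0427 in DESeq2. The BxPC-3 call was lost without DMSO replicate 1 (edgeR adjusted p = 0.0765), without GW3965 replicate 2 (0.0518) or 3 (0.057), and with the compared groups fitted alone (0.0602). EMG1 was not called with GW3965 in any line (log2 0.28 ± 0.136, 0.35 ± 0.124 and 0.14 ± 0.187 in PANC-1, MIA PaCa-2 and BxPC-3), nor was C1S. The EMG1 libraries with GW3965 nonetheless lay above every DMSO library in MIA PaCa-2 and PANC-1.

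With 1E5, LPCAT3 read 19.5, 26.5 and 18.1 CPM in MIA PaCa-2 and 15.7, 18.3 and 18.0 CPM in PANC-1. Every one of these lay below every DMSO library of its line. The fall was 3.03-fold in MIA PaCa-2 (log2 -1.6 ± 0.204; edgeR adjusted p = 6.16e-05) and 3.35-fold in PANC-1 (-1.75 ± 0.0994; adjusted p = 7.46e-07). In BxPC-3 LPCAT3 read 84.1, 104 and 107 CPM with 1E5, overlapping DMSO, at -0.21 ± 0.136 log2 (edgeR adjusted p = 1.0). The 1E5 response differed among the lines (interaction in edgeR, adjusted p = 5.31e-06). EMG1 rose with 1E5 in MIA PaCa-2, at 108 ± 8.9 CPM with 1E5 and 79.0 ± 4.77 CPM with DMSO (SD, n = 3 each; 0.45 ± 0.122 log2; edgeR adjusted p = 0.00901), and stood at 0.3 ± 0.136 log2 in PANC-1 (adjusted p = 0.099).

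With 3A4, LPCAT3 read 36.1, 23.9 and 36.1 CPM in MIA PaCa-2 and 34.6, 38.2 and 37.1 CPM in PANC-1. These too lay below every DMSO library, at falls of 2.03-fold (log2 -1.02 ± 0.205; edgeR adjusted p = 0.00968) and 1.59-fold (-0.66 ± 0.0986; adjusted p = 0.00348). In BxPC-3 it read 86.5, 82.8 and 91.6 CPM, also below DMSO in every library, at -0.39 ± 0.136 log2 with an adjusted p of 0.287 (95% interval -0.69 to -0.094). The fall with 3A4 was smaller than that with 1E5 in PANC-1, where 3A4 stood above 1E5 by 1.08 ± 0.0998 log2 (95% interval 0.86 to 1.3; edgeR adjusted p = 1.77e-05). In MIA PaCa-2 the difference was 0.58 ± 0.204 log2 (95% interval 0.14 to 1.02; adjusted p = 0.0455), with overlapping libraries. It did not pass without 1E5 replicate 1 or 3 or 3A4 replicate 1 or 3 (edgeR adjusted p 0.134 to 0.155). C1S fell with 3A4 in MIA PaCa-2, to 6.0 ± 1.49 CPM against 11.8 ± 1.44 CPM with DMSO (SD, n = 3 each; edgeR adjusted p = 0.0308), and EMG1 was not called with 3A4 in any line. With DMSO, LPCAT3 was 2.19-fold higher in BxPC-3 than in PANC-1 and 2.0-fold higher in BxPC-3 than in MIA PaCa-2 (edgeR adjusted p = 5.78e-07 and 4.31e-06), while MIA PaCa-2 and PANC-1, at 61.2 ± 9.05 and 55.9 ± 3.09 CPM, were not separated (adjusted p = 0.524).

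Of 9 other lysophospholipid acyltransferases, 8 or 9 of which were tested in a line, none was called with GW3965 in any line. With 1E5, 2 rose and 1 fell in MIA PaCa-2 (23.6% and 23.4% of all genes). In PANC-1 1 rose and 5 fell with 1E5 (19.7% and 19.3% of all genes). With 3A4, 0 were called in MIA PaCa-2 and 3 fell in PANC-1 (3.84% of all genes). LPCAT2, which makes platelet-activating factor and phosphatidylcholine, fell in PANC-1 4.31-fold with 1E5 and 1.75-fold with 3A4 (edgeR adjusted p = 4.44e-07 and 0.00191), against 63.1 ± 5.64 CPM with DMSO (SD, n = 3). MBOAT1, which acylates lysophosphatidylserine and lysophosphatidylethanolamine, rose with 1E5 5.58-fold in MIA PaCa-2 and 3.42-fold in PANC-1 (edgeR adjusted p = 0.000156 and 3.63e-06). LPGAT1, an acyltransferase of the endoplasmic reticulum, rose with 1E5 3.18-fold in MIA PaCa-2 and fell 1.63-fold in PANC-1 (edgeR adjusted p = 0.0152 and 0.00123).

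PLTP (ENSG00000100979; GRCh38, chromosome 20, 45898621 to 45912155, minus strand) encodes the phospholipid transfer protein, a secreted protein that moves phospholipids from triglyceride-rich particles to high-density lipoprotein. It shares 200 exonic bases with CTSA (cathepsin A) on the opposite strand. Its upstream window is shown because PLTP was the one gene of the 7 called higher with 1E5 in both MIA PaCa-2 and PANC-1. The 250 bases before the RefSeq start that meets the annotated gene end (GRCh38.p14, chr20:45912156-45912405, minus strand) hold no AGGTCA core motif and no CCAAT box. Capitals mark a TATA box, TATAAA, overlapping its own reverse complement TTTATA, a motif in 10.7% of all windows.
PLTP: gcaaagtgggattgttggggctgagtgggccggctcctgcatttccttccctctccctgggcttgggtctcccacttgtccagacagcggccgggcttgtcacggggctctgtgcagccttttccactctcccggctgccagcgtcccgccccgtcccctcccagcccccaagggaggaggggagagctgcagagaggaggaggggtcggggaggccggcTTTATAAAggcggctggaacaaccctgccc

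PLTP read 59.4, 94.9 and 78.0 CPM with 1E5 in PANC-1 against 9.82, 22.1 and 12.5 CPM with DMSO. In MIA PaCa-2 it read 59.0, 76.8 and 88.9 CPM with 1E5 against 55.9, 47.4 and 57.7 CPM with DMSO. In BxPC-3 it read 234, 210.0 and 197 CPM with 1E5 against 218, 218 and 210.0 CPM with DMSO. The groups stood apart in PANC-1, lay close in MIA PaCa-2 and overlapped in BxPC-3. The rise was 5.22-fold in PANC-1 (log2 2.38 ± 0.357; edgeR adjusted p = 0.000494) and 1.4-fold in MIA PaCa-2 (0.49 ± 0.186; adjusted p = 0.0473), and the BxPC-3 value was -0.013 ± 0.121 (adjusted p = 1.0). The response differed among the lines (interaction in edgeR, adjusted p = 1.97e-05). The MIA PaCa-2 call was lost without 1E5 replicate 2 or 3 or any 1 of the DMSO libraries (edgeR adjusted p 0.0601 to 0.173). CTSA fell with 1E5 in MIA PaCa-2, to 153 ± 12.4 CPM against 226 ± 5.04 CPM with DMSO (SD, n = 3 each; edgeR adjusted p = 0.0013), and stood at -0.3 ± 0.14 log2 in PANC-1 (adjusted p = 0.107).

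With 3A4 PLTP was not called in any line. It read 10.2, 17.8 and 12.7 CPM in PANC-1, 42.8, 33.3 and 51.1 CPM in MIA PaCa-2 and 209, 173 and 183 CPM in BxPC-3, all BxPC-3 values being below DMSO. The log2 values over DMSO were -0.13 ± 0.363, -0.34 ± 0.187 and -0.19 ± 0.121 (edgeR adjusted p = 0.865, 0.245 and 0.54). In PANC-1 PLTP had the largest difference between the compounds among the 7 genes. 3A4 stood below 1E5 by 5.7-fold in PANC-1 (log2 -2.51 ± 0.358, 95% interval -3.3 to -1.73; edgeR adjusted p = 0.00038) and by 1.77-fold in MIA PaCa-2 (-0.82 ± 0.184, -1.22 to -0.42; adjusted p = 0.0046), with no overlap of libraries in either line. With GW3965, PLTP read 294, 318 and 392 CPM in BxPC-3, above every DMSO library, a rise of 1.55-fold (log2 0.63 ± 0.121; edgeR adjusted p = 0.0277). This call was lost without any 1 of the DMSO libraries or GW3965 replicate 2 or 3 (adjusted p 0.065 to 0.113), and it had an adjusted p of 0.512 in the fit of all 36 libraries. In MIA PaCa-2 it read 60.8, 67.5 and 58.3 CPM and in PANC-1 13.1, 31.2 and 19.1 CPM with GW3965, at 0.22 ± 0.19 and 0.51 ± 0.359 log2 (edgeR adjusted p = 0.84 and 1.0). In PANC-1 replicate 2 was the highest library with GW3965, 1E5, 3A4 and DMSO alike. With DMSO the order was BxPC-3, MIA PaCa-2, PANC-1, at 231 ± 3.38, 50.5 ± 3.85 and 14.3 ± 6.34 CPM (SD, n = 3 each), and each pair of lines differed (edgeR adjusted p = 4.64e-08, 1.55e-06 and 1.25e-12 for BxPC-3 over MIA PaCa-2, MIA PaCa-2 over PANC-1 and BxPC-3 over PANC-1).

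SMPDL3A (ENSG00000172594; GRCh38, chromosome 6, 122789049 to 122809720, plus strand) encodes a secreted phosphodiesterase related to acid sphingomyelinase, described as an LXR target in human macrophages. It was well measured in BxPC-3 and close to the limit of detection in MIA PaCa-2. With 1E5 it read 3.8, 5.12 and 3.44 CPM in MIA PaCa-2 (103, 135 and 90 counts) against 1.13, 1.62 and 0.0 CPM with DMSO (7, 17 and 0 counts). A count of 0 in the DMSO library of 3609582 counts allows up to 0.831 CPM, taking 3 counts as the limit and counting error only. The 1E5 libraries all lay above the DMSO libraries, at 1.97 ± 0.788 log2 with an edgeR adjusted p of 0.052, which ranged from 0.00119 to 0.136 over the alternatives and passed in 7 of 16. In PANC-1 SMPDL3A read 7.67, 5.24 and 8.01 CPM with 1E5 against 2.47, 5.31 and 4.5 CPM with DMSO, a rise of 1.7-fold (log2 0.76 ± 0.277; edgeR adjusted p = 0.0472). These groups overlapped, and the call was lost without 1E5 replicate 1 or 3 or DMSO replicate 1 or 3 (adjusted p 0.0808 to 0.14). It passed in 5 of 14 alternatives, and among the others were the fit of all 36 libraries (0.123), library total scaling (0.0714), no filter on low counts (0.0881) and the compared groups alone (0.134). In BxPC-3 it read 17.2, 20.9 and 23.6 CPM with 1E5 against 21.7, 23.8 and 21.9 CPM with DMSO (-0.13 ± 0.15 log2; edgeR adjusted p = 1.0). The 1E5 response differed among lines (interaction in edgeR, adjusted p = 0.018).

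With 3A4 SMPDL3A read 7.19, 6.77 and 6.26 CPM in PANC-1, above every DMSO library, at 0.72 ± 0.278 log2 (edgeR adjusted p = 0.14). It read 0.573, 1.83 and 2.35 CPM in MIA PaCa-2 and 14.7, 21.4 and 18.1 CPM in BxPC-3 (log2 0.64 ± 0.808 and -0.31 ± 0.15; adjusted p = 0.621 and 0.417). With GW3965 it read 21.9, 23.2 and 22.7 CPM in BxPC-3, 1.79, 0.621 and 0.0 CPM in MIA PaCa-2 and 4.38, 5.94 and 6.0 CPM in PANC-1. None of these was called, at 0.011 ± 0.15, -0.3 ± 0.918 and 0.41 ± 0.278 log2 (edgeR adjusted p = 0.99, 0.978 and 1.0). The interval in BxPC-3 ran from -0.32 to 0.34 log2. The one in MIA PaCa-2, from -2.29 to 1.68, was wide and included the 0.77 log2 of MYLIP with GW3965 in that line. 3A4 over 1E5 was not called (log2 -0.049, -1.33 and -0.19 in PANC-1, MIA PaCa-2 and BxPC-3, with intervals of -0.65 to 0.55, -2.86 to 0.19 and -0.51 to 0.14). With DMSO, SMPDL3A was 6.07-fold higher in BxPC-3 than in PANC-1 and 22.7-fold higher in BxPC-3 than in MIA PaCa-2, and 3.74-fold lower in MIA PaCa-2 than in PANC-1 (edgeR adjusted p = 1.2e-06, 2.4e-09 and 0.00122). The folds against MIA PaCa-2 rest on the 7, 17 and 0 counts of its DMSO libraries: without its replicate 2 the log2 value for BxPC-3 over MIA PaCa-2 was 5.28 in place of 4.5 and that for MIA PaCa-2 over PANC-1 was -2.69 in place of -1.9.

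Of 5 sphingomyelin phosphodiesterase and related genes listed beside SMPDL3A, none was called with GW3965. With 1E5, 3 of 4 tested fell in MIA PaCa-2 (23.4% of all genes) and 2 of 5 rose in PANC-1 (19.7% of all genes). With 3A4 none was called in either line. SMPD2, a neutral sphingomyelinase, stood at 13.4 ± 0.691 CPM with 1E5 against 25.3 ± 7.0 CPM with DMSO in MIA PaCa-2 and at 44.9 ± 3.11 against 30.9 ± 4.58 CPM in PANC-1 (SD, n = 3 each; edgeR adjusted p = 0.00862 and 0.00419). SMPD1, the acid sphingomyelinase, fell with 1E5 in MIA PaCa-2 (1.52-fold; edgeR adjusted p = 0.0491).

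TMEM135 (ENSG00000166575; GRCh38, chromosome 11, 87037844 to 87323758, plus strand) encodes a membrane protein linked to peroxisomes and mitochondria, described as an LXR target in human liver cells. It shares 50 exonic bases with a pseudogene on the opposite strand that drew 156 counts over the 36 libraries. With 1E5 it read 30.3, 44.6 and 38.3 CPM in PANC-1 and with 3A4 45.1, 36.6 and 40.8 CPM, against 69.8, 68.6 and 62.8 CPM with DMSO. Both sets lay below every DMSO library. The falls were 1.78-fold with 1E5 (log2 -0.83 ± 0.141; edgeR adjusted p = 0.00087) and 1.64-fold with 3A4 (-0.72 ± 0.141; adjusted p = 0.0135), and the 3A4 call was lost without 3A4 replicate 2 (adjusted p = 0.054) or 3 (0.0567). The 2 compounds were not separated (0.12 ± 0.142 log2, 95% interval -0.2 to 0.43). In MIA PaCa-2 TMEM135 read 16.1, 19.3 and 28.5 CPM with 1E5 and 16.6, 20.7 and 15.5 CPM with 3A4 against 28.5, 28.4 and 23.5 CPM with DMSO. There 3A4 lay below DMSO in every library at -0.61 ± 0.214 log2 (edgeR adjusted p = 0.0753, and 0.0452 with the 1E5 libraries left out of the fit). The 1E5 value was -0.34 ± 0.212 log2 (adjusted p = 0.208), and without 1E5 replicate 3, the highest of the group, it was -0.6 with an adjusted p of 0.0261. In BxPC-3 TMEM135 read 22.6, 42.3 and 40.1 CPM with 1E5 and 19.2, 23.9 and 30.1 CPM with 3A4 against 27.5, 48.9 and 38.8 CPM with DMSO, with overlap in both cases (log2 -0.13 ± 0.254 and -0.66 ± 0.255; adjusted p = 1.0 and 0.333).

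With GW3965 TMEM135 read 98.6, 116 and 110.0 CPM in PANC-1, 36.6, 39.3 and 41.1 CPM in MIA PaCa-2 and 52.9, 59.5 and 52.3 CPM in BxPC-3. All 9 lay above the DMSO libraries of their line, which is a description, and none of the 3 differences was called by edgeR. The log2 values were 0.69 ± 0.14, 0.53 ± 0.215 and 0.51 ± 0.253 (edgeR adjusted p = 0.235, 0.495 and 0.451), and DESeq2 called that of PANC-1 (adjusted p = 0.00348). With DMSO, PANC-1 had the most TMEM135, at 64.5 ± 3.68 CPM, followed by BxPC-3 at 41.2 ± 11.5 and MIA PaCa-2 at 25.4 ± 3.41 CPM (SD, n = 3 each). All 3 pairs were called (edgeR adjusted p = 0.014 for BxPC-3 over PANC-1, 1.32e-05 for MIA PaCa-2 over PANC-1 and 0.0107 for BxPC-3 over MIA PaCa-2). The first was lost without BxPC-3 replicate 1 (adjusted p = 0.125) and the third without BxPC-3 replicate 2 (0.0873) and in limma-voom (0.0617). Of 9 genes of peroxisome biogenesis, all tested in each line, none was called with GW3965. With 1E5, 1 of them rose and 2 fell in MIA PaCa-2 (23.6% and 23.4% of all genes). In PANC-1 1 rose and 1 fell with 1E5 (19.7% and 19.3% of all genes).

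APOE (ENSG00000130203; GRCh38, chromosome 19, 44905754 to 44909393, plus strand) encodes apolipoprotein E, the ligand by which remnant lipoproteins bind their receptors. APOC1 (ENSG00000130208; 44914247 to 44919349, same strand) lies 4854 bases beyond it and encodes a small apolipoprotein that slows lipoprotein uptake, and 532 of its exonic bases are shared with an uncharacterised transcript that drew 247 counts over the 36 libraries. Both are LXR targets in macrophages, and they were not called with any of the 3 ligands in any of the 3 lines. APOE RNA was found mainly in PANC-1. With DMSO it read 307, 516 and 386 CPM there, against 4 to 13 counts a library in MIA PaCa-2 and 2 to 23 in BxPC-3. The level was 876-fold lower in BxPC-3 than in PANC-1 (log2 -9.77 ± 0.552; edgeR adjusted p = 7.66e-15; -11.23 without BxPC-3 replicate 3, which held most of the counts of that group) and 327-fold lower in MIA PaCa-2 than in PANC-1 (-8.35 ± 0.591; adjusted p = 2e-13). BxPC-3 and MIA PaCa-2 were not separated (-1.42 ± 0.731 log2; adjusted p = 0.101), although they were without BxPC-3 replicate 3 (log2 -2.86; adjusted p = 0.00677) and in DESeq2 (0.0276).

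In PANC-1 APOE read 290.0, 480.0 and 404 CPM with GW3965, 223, 595 and 281 CPM with 1E5 and 210.0, 325 and 261 CPM with 3A4. Replicate 2 was the highest library of all 4 groups and the groups overlapped DMSO. The log2 values were -0.04 ± 0.34, -0.14 ± 0.34 and -0.6 ± 0.341 (edgeR adjusted p = 1.0, 0.782 and 0.311), with 95% intervals of -0.79 to 0.7, -0.88 to 0.61 and -1.35 to 0.15. In BxPC-3 APOE stayed between 0.0831 and 1.08 CPM and in MIA PaCa-2 between 0.758 and 3.66 CPM over all groups, and values of 0.91 ± 0.765 and 0.61 ± 0.553 log2 with GW3965 rest on few counts (edgeR adjusted p = 0.701 and 0.85). In PANC-1 the macrophage and hepatocyte marker sums did not exceed 4.3 and 1.42 CPM in any library.

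APOC1 read 8.44, 10.5 and 13.5 CPM with GW3965 in PANC-1, 8.02, 15.9 and 11.3 CPM with 1E5 and 7.91, 10.0 and 6.0 CPM with 3A4, against 8.44, 11.0 and 11.3 CPM with DMSO. In MIA PaCa-2 it read 8.52, 7.22 and 12.3 CPM with GW3965, 7.52, 6.33 and 8.63 CPM with 1E5 and 5.04, 5.65 and 4.53 CPM with 3A4, against 7.4, 5.9 and 9.86 CPM with DMSO. In BxPC-3 all 12 libraries lay between 1.32 and 3.23 CPM. The groups overlapped save for 3A4 in MIA PaCa-2, where every library lay below DMSO at -0.58 ± 0.28 log2 (edgeR adjusted p = 0.185). With GW3965 the log2 values were 0.072 ± 0.277, 0.27 ± 0.286 and 0.057 ± 0.366 in PANC-1, MIA PaCa-2 and BxPC-3 (adjusted p = 1.0, 0.881 and 0.976). With DMSO, APOC1 was 3.93-fold lower in BxPC-3 than in PANC-1 and 2.84-fold lower in BxPC-3 than in MIA PaCa-2 (edgeR adjusted p = 5.58e-06 and 0.000264), while MIA PaCa-2 and PANC-1 were not separated (adjusted p = 0.225). BxPC-3 over PANC-1 thus stood at -1.97 log2 for APOC1 and -9.77 for its neighbour APOE, a contrast that was not tested.

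Among 13 other genes of apolipoproteins and lipoprotein remodelling, 5 or 6 were tested in a line and none was called with GW3965. CLU (clusterin, apolipoprotein J) stood at 44.1 ± 7.2 CPM with 1E5 against 79.3 ± 8.86 CPM with DMSO in MIA PaCa-2 and at 61.0 ± 23.9 against 135 ± 13.6 CPM in PANC-1 (SD, n = 3 each; edgeR adjusted p = 0.000704 and 0.00172). In all, 1E5 lowered 2 genes of the list in PANC-1 and 3 in MIA PaCa-2 (19.3% and 23.4% of all genes). In MIA PaCa-2 APOL1 fell with 3A4 (4.67-fold, edgeR adjusted p = 0.0154). Of 5 genes beside APOE and APOC1, none was called with GW3965. With 1E5, 1 of them rose and 3 fell in MIA PaCa-2 (23.6% and 23.4% of all genes), and 1 rose in PANC-1 (19.7%). TOMM40, a pore of the mitochondrial outer membrane whose gene ends 2065 bases before APOE, stood at 71.8 ± 17.7 CPM with 1E5 against 136 ± 12.7 CPM with DMSO in MIA PaCa-2 (edgeR adjusted p = 0.00333). RELB, an NF-kB subunit of the same neighbourhood, rose with 3A4 in MIA PaCa-2, at 46.2 ± 9.35 CPM against 18.6 ± 8.6 CPM with DMSO (edgeR adjusted p = 0.0265). It rose with 1E5 as well, 2.7-fold in MIA PaCa-2 and 1.6-fold in PANC-1 (edgeR adjusted p = 0.00364 and 0.0066).

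**Figure D5:**
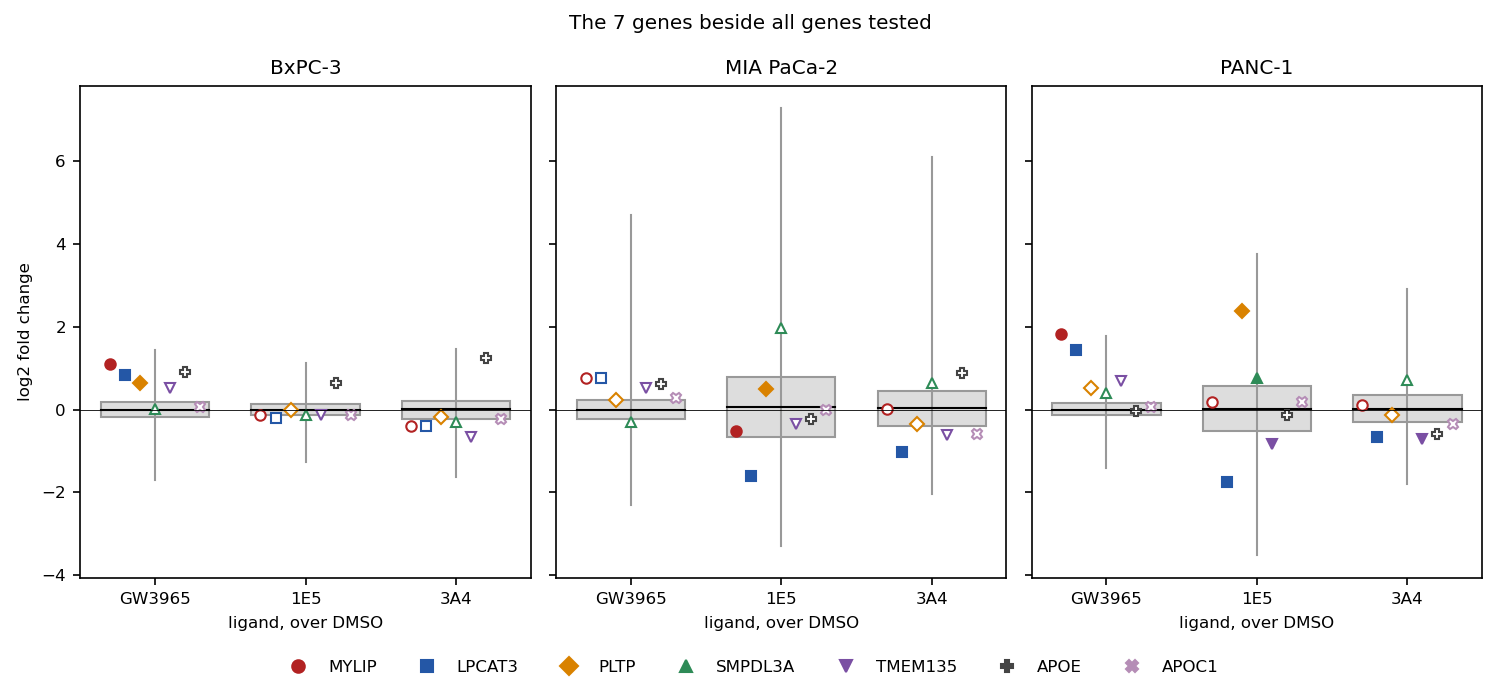
Log2 fold change over DMSO of the 7 genes (points, filled where the edgeR adjusted p is under 0.05) beside all genes tested, for each ligand and line; boxes run from the 25th to the 75th percentile with the median, and grey lines from the 1st to the 99th. With GW3965 in PANC-1 the box runs from -0.14 to 0.16 and MYLIP stands at 1.83, above the 99th percentile of 1.78, whereas with 1E5 in PANC-1 the box runs from -0.53 to 0.56.

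The genes whose levels went most like each of the 7 were found by Pearson's r over the 12 group means of log2 CPM, after the mean of each line was removed, among 12784 genes. The groups share their DMSO libraries and lines, so these values are a description. ABCA1 came first for MYLIP (r = 0.97), ELOVL5, a fatty acid elongase, for LPCAT3 (0.965) with FASN next (0.963), and ACSS2, an acetyl-CoA synthetase, for TMEM135 (0.979) with SCD, the desaturase that makes oleate, next (0.974). For PLTP they were ZNF496 (0.988) and OSCAR (0.978), for SMPDL3A VSIG10L and WAC (both 0.978), and for APOC1 PCED1A (0.951) and ZNF362 (0.946). APOE had the lowest leading value, 0.833 with ADARB1.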

How the data were processed

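The 7 genes and the gene lists beside them were chosen with earlier results of these data known. The authors deposited whole-number counts, 1 table with a column for each of the 36 libraries, made from stranded total RNA libraries with 500 ng of input per the labels' protocols. Trim Galore 0.4.4, HISAT2 2.0.2, SAMtools 1.3, StringTie 1.3.1c and GRCh38 are named in the submitters' processing notes, with no role or order. Not given in the sources used here are the annotation and the strand setting of the counting. Of 58658 lines, 407 named transcripts and 8 named assembled loci, and these were left out (at most 0.00396% of a library). Of 58243 genes, 57532 had a symbol in the gene name table supplied with the reference.

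Counts were fitted per line with edgeR 4.0.16 in R 4.3.3 (12 libraries, 1 mean per group, TMM scaling, filterByExpr defaults), which kept 18544 genes in PANC-1, 16254 in MIA PaCa-2 and 18042 in BxPC-3, and all 7 genes in each. Tests were two-sided quasi-likelihood tests, with Benjamini-Hochberg adjustment across every gene in the fit and calls at 0.05. Interactions (2 degrees of freedom) and DMSO comparisons between lines used 1 fit of 36 libraries over 22132 genes, and the CPM of line comparisons are scaled over all 36. CPM are counts per 1000000 of the library total after TMM scaling. Standard errors and 95% intervals come from the fit, so they cover only how these libraries varied, counting error included. Statements that 2 groups did not overlap compare 3 libraries with 3 and are descriptions. The share of all genes whose libraries separated in this way is not given here. The procedure was tested on simulated data, for GW3965 against DMSO. Of 100 simulated 2-fold changes per line, MIA PaCa-2 gave back 29%, PANC-1 45% and BxPC-3 66%. For 4-fold changes the shares were 87%, 87% and 86%, with the lines in the same order. Among unchanged genes at most 0.0462% were called. A true 2-fold change can therefore go uncalled, most often in MIA PaCa-2. Exon lengths and positions are from GENCODE release 29, and upstream sequences from RefSeq (GRCh38.p14), which gave 6 of the 7 genes. The genes named were the 7, the 2 genes with the most similar pattern to each (mean of at least 2 CPM), up to 3 called genes per list and comparison with the smallest p, and ABCA1. EMG1, C1S and CTSA are named because they overlap 2 of the 7. The alternatives were a replicate block, RLE scaling, no filter on low counts, limma-voom (limma 3.58.1), DESeq2 1.42.0, the compared groups alone, all libraries in 1 fit, thinning to the shallowest MIA PaCa-2 library, and each library left out. Library total scaling, leaving out the 2 shallowest MIA PaCa-2 libraries and leaving out the 1E5 libraries were added after seeing the data. Single values of some genes of the lists are not reported here.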

Additional observations from a re-analysis of the deposited data

Results flagged for a closer look

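The response to 1E5 differed among the 3 lines for 3 of the 7 genes, by the interaction test in edgeR over all 36 libraries. For LPCAT3 the log2 fold changes over DMSO were -1.75 in PANC-1, -1.6 in MIA PaCa-2 and -0.21 in BxPC-3 (adjusted p = 5.31e-06). For PLTP they were 2.38, 0.49 and -0.013 in the same order of lines (adjusted p = 1.97e-05). For SMPDL3A they were 0.76, 1.97 and -0.13 (adjusted p = 0.018). Of all 22132 genes tested, 38.5% passed the same test for 1E5.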

How the results depend on the processing

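Over the single values of the 7 genes, 1867 kept their direction and their side of the threshold under an alternative, 27 passed it newly, 79 no longer passed it and 47 changed sign. The 1867 include values called in neither fit, so they do not measure how firm the calls were. MYLIP with 1E5 in MIA PaCa-2 passed in 3 of 16 alternatives, and LPCAT3 for 3A4 against 1E5 there in 5 of 16. With GW3965 in BxPC-3, MYLIP passed in 9, LPCAT3 in 11 and PLTP in 8 of 15. LPCAT3 with 1E5 passed in all 16 in MIA PaCa-2 and all 14 in PANC-1. No called value changed sign. The main fits did not use the replicate numbers. The correlations of same-numbered libraries were low, from -0.0624 to 0.229, and in no comparison were all 3 above 0.1. Yet in 6 of 12 comparisons each of the 6 libraries correlated best with its own number. In the other comparisons 4 or 5 of the 6 did, save for 2 of 6 with 3A4 against DMSO in MIA PaCa-2. Same-numbered libraries of a line thus tended to vary together, which the main fits leave out. With a replicate block, the count over all genes was 478 in place of 239 for GW3965 in BxPC-3, 275 in place of 6 for 3A4 in BxPC-3, 412 in place of 26 for 3A4 against 1E5 in BxPC-3, and 52 in place of 23 and 2053 in place of 1304 for the differences among lines with GW3965 and with 3A4. Of the 7, the block called 1 in place of 0 for the differences among lines with GW3965 (MYLIP, edgeR adjusted p = 0.0403) and with 3A4 (APOE, 0.0228). It also called MYLIP for the difference with 1E5 (0.0434) and APOE between BxPC-3 and MIA PaCa-2 (0.00284). It did not call TMEM135 between BxPC-3 and MIA PaCa-2 (0.126), LPCAT3 for 3A4 against 1E5 in MIA PaCa-2 (0.0523) or SMPDL3A with 1E5 in PANC-1 (0.0504). DESeq2 also gave 1 of the 7 for the difference among lines with GW3965.

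For the counts of the 7 genes called, GW3965 in BxPC-3 (3) became 1 with the compared groups alone and 0 to 2 with 1 library left out. GW3965 in MIA PaCa-2 (0) became 2 in the fit of all 36 libraries and 2 in DESeq2. 1E5 in MIA PaCa-2 (3) became 1 without the 2 shallowest libraries and 1 to 3 with 1 library left out. 3A4 in MIA PaCa-2 (1) became 2 after thinning and 2 without the 1E5 libraries. 3A4 against 1E5 in MIA PaCa-2 (3) became 1 with library total scaling, no filter, the compared groups alone or thinning, and 1 to 2 with 1 library left out. 3A4 in PANC-1 (2) became 1 to 2, and the difference among lines with 3A4 (0) became 0 to 1. The cause was not tested.

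Sign changes were confined to values that were not called. SMPDL3A with GW3965 was -0.01 log2 in the fit of all 36 libraries and -0.04 with library total scaling in BxPC-3, and 0.001 after thinning in MIA PaCa-2. APOC1 with 1E5 in MIA PaCa-2 was 0.077 in the fit of all 36 libraries, 0.028 with RLE scaling, 0.16 with library total scaling, 0.086 with no filter, 0.079 in limma-voom, 0.047 in DESeq2, 0.017 with the compared groups alone and 0.19 without the 2 shallowest libraries. With 1 library left out, the log2 ranges that crossed 0 were, with GW3965, SMPDL3A -0.015 to 0.054 and APOC1 -0.08 to 0.25 in BxPC-3, SMPDL3A -1.18 to 0.35 in MIA PaCa-2, and APOC1 -0.12 to 0.22 and APOE -0.21 to 0.17 in PANC-1. With 1E5 they were MYLIP -0.32 to 0.064, TMEM135 -0.33 to 0.1, APOC1 -0.54 to 0.12 and PLTP -0.087 to 0.043 in BxPC-3, APOC1 -0.17 to 0.19 in MIA PaCa-2, and APOE -0.67 to 0.12 and APOC1 -0.083 to 0.41 in PANC-1. With 3A4 they were MYLIP -0.022 to 0.068 in MIA PaCa-2 and PLTP -0.38 to 0.27 in PANC-1. For 3A4 over 1E5 they were APOC1 -0.48 to 0.32 in BxPC-3 and SMPDL3A -0.22 to 0.06, TMEM135 -0.021 to 0.25 and APOE -0.72 to 0.072 in PANC-1. LPCAT3 in MIA PaCa-2 over PANC-1 with DMSO ran from -0.041 to 0.16. Library total scaling moved the median of all genes by 0.18 for 1E5 and -0.12 for 3A4 over 1E5 in MIA PaCa-2 and by -0.11 for BxPC-3 over PANC-1. Few counts limit the precision of APOE in BxPC-3 and MIA PaCa-2 and of SMPDL3A in MIA PaCa-2.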
